A study of Mus musculus with 12 samples.

Results

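Only 1 of the 1042 miRNAs in the deposited table is an arm of miR-184, the 3′ arm mmu-miR-184-3p (miR-184-3p), and it was taken by its name. miR-184 was chosen by its deposited values, which varied among the 3 kinds of reprogrammed cells, so the differences among them are described without a test. miR-184-3p was highest in ESCs, at 1064 ± 37.1 CPM (SD, n = 3), the share of a library's miRNA reads scaled to a common total, and lowest in NT-ESCs, at 60.3 ± 4.23 CPM (SD, n = 2). MEFs, iPSCs and NT-iPSCs lay between. The 5′ arm was not analysed here.

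A miRNA is cut from a hairpin transcript and pairs with target mRNAs mainly through its seed, the bases near its 5′ end. miR-184 is conserved from insects to mammals and is abundant in the lens and the corneal epithelium, where it has been described to counter miR-205. In adult neural stem cells the methyl-CpG-binding protein Mbd1 represses miR-184, which acts there on Numbl. In the mouse its hairpin lies near Rasgrf1, an imprinted gene expressed from the paternal allele, and miR-184 has itself been described as imprinted in brain.

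The sequence of miR-184-3p is shown with its seed (bases 2 to 8) in capitals, and the hairpin with both mature arms in capitals, the 5′ arm first, because no other name in the RefSeq table has this seed. The sequences are those of RefSeq on GRCm38.p6, where the hairpin of 69 bases is at chr9:89802260-89802328 on the minus strand.
miR-184-3p: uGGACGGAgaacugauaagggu
Mir184 hairpin: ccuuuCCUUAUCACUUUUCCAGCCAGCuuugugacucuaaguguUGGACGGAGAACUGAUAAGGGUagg
In GENCODE M21 (GRCm38) the hairpin overlaps no other gene. The closest is the lincRNA 1700017I07Rik, which begins 542 bases away on the opposite strand, and Rasgrf1 begins 107580 bases away. Among the 1679 mature mouse miRNA names in the RefSeq table, none other than miR-184-3p has its seed, nor bases 2 to 7 of it. Of the 5 other mature miRNAs whose hairpins lie within 5 Mb, 0 were found by name in the deposited table, of whose 1042 names 804 matched RefSeq, so a neighbour under an older name would be missed.

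The study compared small RNA from 5 mouse cell types in 12 libraries, each type represented by a single line whose replicates were separate RNA batches. ESCs were the line E14 of the 129/ola strain (3 libraries). MEFs (3 libraries) and the reprogrammed cells were C57B6/129SvJae F1, and the reprogrammed cells came from the same MEFs. Lentiviral Oct4, Sox2, Klf4 and c-Myc, switched on by dox, turned MEFs into iPSCs, while NT-ESCs came from placing a MEF nucleus, and NT-iPSCs an iPSC nucleus, in an oocyte (2 libraries each). All pluripotent cells grew on irradiated MEFs in medium with LIF. The spread between libraries therefore does not cover differences between lines, and strain cannot be told apart from origin wherever ESCs are compared with the other types. In the study's read summary, every reprogrammed library had more total reads and a larger share of 5′ adaptor contaminants than every ESC and MEF library. A difference in library preparation or sequencing was not tested. It cannot be told apart from reprogramming where reprogrammed cells are compared with ESCs or MEFs.

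The libraries held 4863365 to 8608689 miRNA reads, recovered from the deposited values by inverting the variance stabilizing transformation (VST) that the authors had applied. Of the 1042 miRNAs, 732 had at least 10 reads in at least 2 libraries and were tested. As a check of the labels, 17 arms from the miR-290 and miR-302 clusters (miR-367-3p included), which mark pluripotent cells, summed to 0.890 to 12.9 CPM in MEFs, where 7 of them were at 0 in all 3 libraries, and to 101426 to 206465 CPM in the pluripotent libraries. The 7 fibroblast miRNAs, which could also come from feeder cells, summed to 63699 to 95325 CPM in MEFs, 40587 to 44833 in ESCs, 14000 to 15478 in iPSCs, 33731 to 34690 in NT-ESCs and 34069 to 39639 in NT-iPSCs, and none was at 0 in all libraries of a type.

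In ESCs miR-184-3p had 5379, 5980 and 5273 reads, or 1106, 1036 and 1049 CPM. The 3 MEF libraries had 1193, 1202 and 1240 reads, or 138.6, 152.8 and 154.0 CPM. Every ESC library was above every library of another type, and the MEF libraries lay close together well below them.
In iPSCs there were 1438 and 1489 reads (271.6 and 244.5 CPM), and in NT-iPSCs 2011 and 2101 reads (268.2 and 289.3 CPM). In NT-ESCs there were only 434 and 395 reads. The NT-ESC libraries were at 57.4 and 63.3 CPM, and their 95% Wilson intervals together spanned 52.2 to 69.9 CPM, below the interval of every other library. These intervals reflect counting error alone, since reads made by PCR can be copies of 1 molecule. In a bulk library, fewer cells with miR-184-3p and less of it per cell cannot be told apart. On this scale the 2 NT-ESC libraries were the lowest of the 12, and iPSCs and NT-iPSCs overlapped.

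The deposited values, which are on a log2 scale after division by DESeq size factors, gave another order below ESCs. ESCs had a VST value of 14.64 ± 0.05 (SD, n = 3), followed by 12.83 ± 0.06 (SD, n = 2) in NT-iPSCs, 12.69 ± 0.05 (SD, n = 3) in MEFs, 12.18 ± 0.03 (SD, n = 2) in iPSCs and 10.45 ± 0.14 (SD, n = 2) in NT-ESCs. NT-iPSCs and MEFs were the closest neighbours in that order, 0.14 apart with a standard error of 0.13. Their libraries did not overlap (12.79 to 12.88 against 12.63 to 12.72), as was so, with NT-iPSCs the higher, for 49.7% of the 732 miRNAs. Both iPSC libraries were below all 3 MEF libraries, as were those of 41.4% of the miRNAs. In reads divided by the size factors, ESCs were 18.3-fold above NT-ESCs, 5.52-fold above iPSCs, 3.87-fold above MEFs and 3.50-fold above NT-iPSCs. In CPM the 4 folds were 17.6, 4.12, 7.17 and 3.82, so that MEFs stood lower on this scale than iPSCs and NT-iPSCs. The 10 most abundant miRNAs took 68.7% to 69.9% of the reads in MEFs and 42.1% to 52.7% in the other types, and their part in the change of order was not tested.
The place of miR-184-3p within a library needs no scaling, though it depends on the levels of all the other miRNAs. Ranked by reads among the 1042 miRNAs, it was 85th to 90th in ESCs, 153rd to 154th in NT-iPSCs, 156th to 159th in MEFs, 192nd to 195th in iPSCs and 273rd to 278th in NT-ESCs. The 5 types did not overlap in rank, and the order was that of the deposited values, with NT-iPSCs and MEFs only a few places apart. The share of miRNAs with such non-overlap was not computed, so nothing is read from it.

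**Figure D1:**
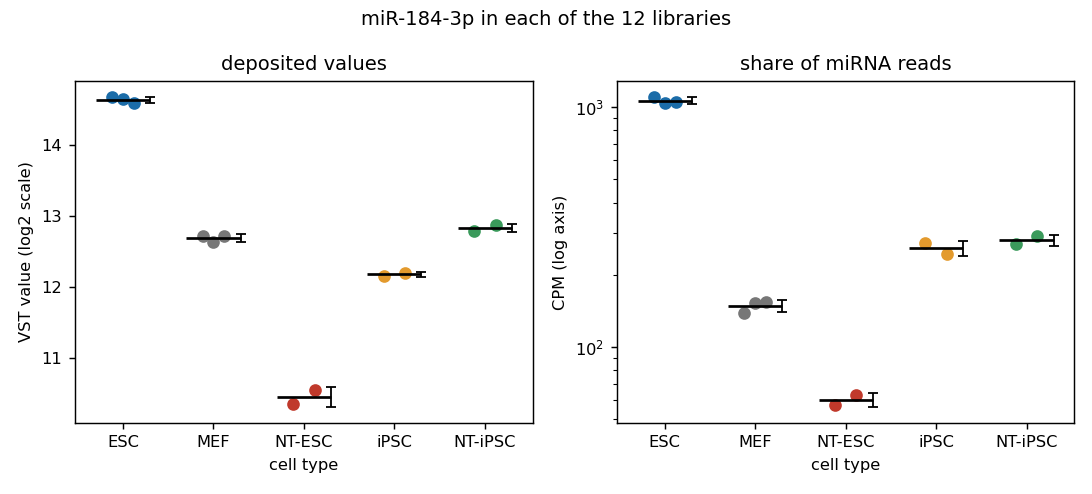
miR-184-3p in each library, as VST values (left, log2 scale) and as CPM (right, log axis), by cell type. Points are libraries, lines are group means and bars to the right are SDs (n = 3 for ESCs and MEFs, n = 2 for the others); ESCs are highest and NT-ESCs lowest in both panels, while MEFs lie above iPSCs on the left and below them on the right.

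The comparison of MEFs with ESCs asked how a somatic cell differs from an embryo-derived stem cell. Its difference is between the means of these libraries, while the filter, the deposited scaling and the estimate of the spread used all 12. miR-184-3p was lower in MEFs, by -1.95 on the VST scale (standard error 0.11, adjusted p = 3.4e-08, limma). The 3 libraries of each type did not overlap, as was so, with MEFs the lower, for 39.9% of the 732 miRNAs. A limma call was also common: 79% of the 732 miRNAs passed in this comparison, and 39.9% passed as lower in MEFs. By size the difference was 336th of the 732, and the median size over all of them was 1.74.
Over the 5 scalings tried, the deposited one included, it stayed between -2.83 (CPM) and -1.31 (upper quartile). The median of all tested miRNAs moved with the scaling, from -0.53 to 0.54. Taken from that median, the difference of miR-184-3p was -2.30 to -1.86.

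Against ESCs, the mean of the 3 reprogrammed types was lower by -2.82 (standard error 0.10, adjusted p = 2.4e-10, limma), a contrast that does not use the differences among the types. All 6 reprogrammed libraries were below all 3 ESC libraries (two-sided exact permutation test over libraries, p = 0.0119, the smallest that 84 arrangements allow). Here 82% of the 732 miRNAs were called, 38% as lower in reprogrammed cells, and 34.4% were lower in every reprogrammed library than in every ESC library. The size ranked 261st of 732, where the median size was 2.00. As a description, NT-ESCs differed from ESCs by -4.20, iPSCs by -2.46 and NT-iPSCs by -1.81 (standard error 0.13 for each).

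Against MEFs, from which they were derived, the reprogrammed types were lower on average by -0.87 (standard error 0.10, adjusted p = 4.5e-06, limma), with 88.9% of the 732 miRNAs called and 40.4% called as lower. The direction did not hold for every type or every scaling. NT-ESCs were lower than MEFs by -2.25, iPSCs by -0.51, and NT-iPSCs were higher by 0.14 (standard error 0.13 for each deposited value, not tested). With upper quartile scaling iPSCs were at -0.98 and NT-iPSCs at -0.25, and with TMM-type scaling at -0.17 and 0.45. Without the 10 most abundant miRNAs in the total they were at -0.02 and 0.38. The 6 reprogrammed libraries, at 10.35 to 12.88, spanned the MEF range, and an exact permutation test over libraries gave p = 0.202 (two-sided). The spread in this test, and in the same test against ESCs, includes the differences among types for which miR-184 was chosen, so neither p is independent of that choice. Both tests also count RNA batches of 1 line as separate units, so nothing is read from either p. limma takes its error from replicate libraries within types, so its p does not weigh the spread among the 3 types. Its mean is taken over the same reprogrammed libraries, with NT-ESCs furthest from MEFs, and its p says nothing of any single type.
In CPM the mean difference was 0.14 (limma adjusted p = 0.278), the opposite sign. On that scale iPSCs and NT-iPSCs were above MEFs by 0.79 and 0.91 and NT-ESCs below by -1.28. The median of all tested miRNAs also rose, from 0.40 with the deposited values to 1.04 in CPM. Taken from the median, the mean difference of miR-184-3p was -1.29 to -0.90 over the 5 scalings, while that of NT-iPSCs alone was -0.31 to 0.14.

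**Figure D2:**
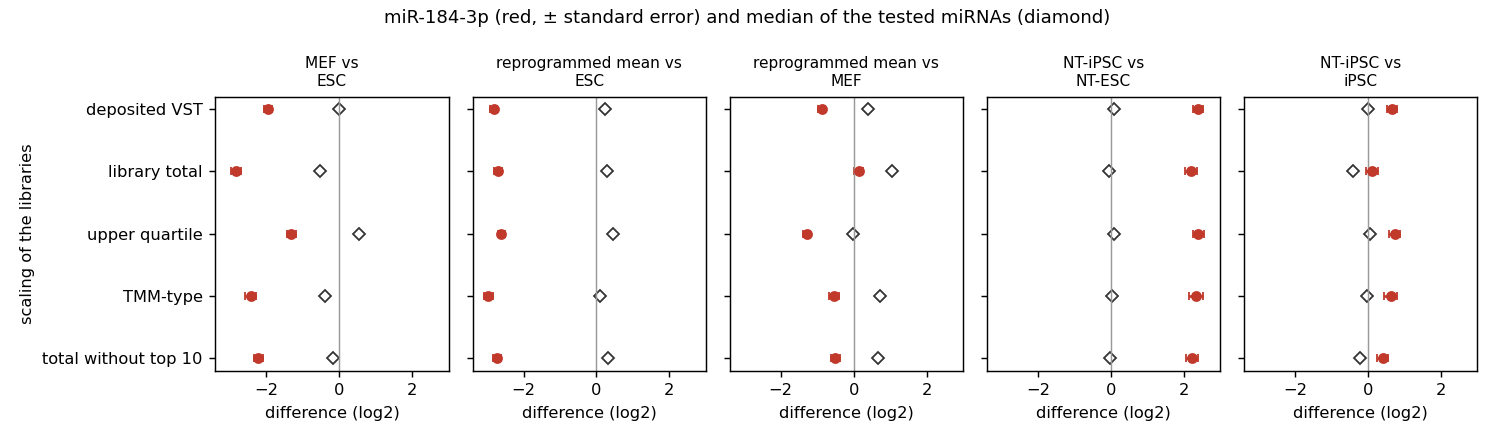
Difference of miR-184-3p (red, with standard error) and median difference of the 732 tested miRNAs (open diamonds) under the deposited and 4 other scalings of the libraries, in log2 units, for 5 comparisons; the first group minus the second. In the comparison with MEFs the red point crosses 0 under library totals, where the diamond also lies furthest to the right, at 1.04.

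The differences among the reprogrammed types are the values for which miR-184 was chosen. NT-iPSCs exceeded NT-ESCs by 2.39 on the VST scale, iPSCs exceeded NT-ESCs by 1.73, and NT-iPSCs exceeded iPSCs by 0.66. Both NT-iPSC libraries were above both iPSC libraries, as they were for 30.7% of the 732 miRNAs. These are 5.24-fold, 3.32-fold and 1.58-fold in size-factor scaled reads. The 2 types made by nuclear transfer were thus the extremes of the 3, and iPSCs lay between.
The gap to NT-ESCs depended little on the scaling: 2.19 to 2.39 for NT-iPSCs and 1.66 to 2.08 for iPSCs. The step from iPSCs to NT-iPSCs did depend on it. It was 0.11 in CPM, where the libraries overlapped, 0.40 with the 10 most abundant miRNAs left out of the total, and 0.73 with upper quartile scaling. Taken from the median of all tested miRNAs it was 0.54 to 0.68.

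Among the 732 tested miRNAs, the range of the 3 type means (2.39) was the 27th widest, and the median range was 0.96. Most of the wider ones had under 100 reads in some library. Where no library had under 100 reads, which held for 222 miRNAs, it ranked 4th. In 109 miRNAs the types followed the same order, NT-iPSCs above iPSCs above NT-ESCs, and 40 of these had a range of at least 1. For 147 miRNAs (20.1% of the 732) both NT-ESC libraries were below all 4 iPSC and NT-iPSC libraries, and for 46 (6.28%) the NT-ESC libraries were the lowest of all. ESCs were above every other library in 125 (17.1%). In 9 miRNAs (1.23%), miR-184-3p among them, the 3 ESC libraries were the highest and the 2 NT-ESC libraries the lowest of all.

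**Figure D3:**
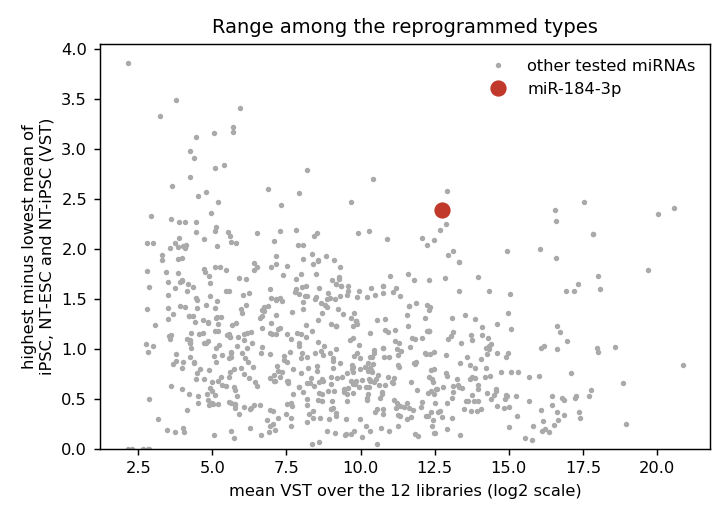
Highest minus lowest mean of iPSCs, NT-ESCs and NT-iPSCs (VST units) against the mean VST over the 12 libraries, for each of the 732 tested miRNAs. miR-184-3p (red) has a range of 2.39 at a mean of 12.74, and most points of wider range lie at lower means.

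Replicate libraries agreed closely for miR-184-3p. The SD within cell types, pooled over the 5 types, was 0.07 on the VST scale, where the median of the 732 miRNAs was 0.33 and 4 miRNAs had a smaller SD. Among the 92 miRNAs whose mean VST was within 1 of its own, the median SD was 0.23 and 1 had a smaller SD. Since the replicates were RNA batches of 1 line, this closeness describes the lines used and not each kind of cell.

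To see which miRNAs moved like miR-184-3p, Pearson's r between VST values was computed over the 12 libraries for the 731 others, as a description that carries the depth and scaling the values share. The 5 with the highest r were miR-142-3p (0.90), miR-1981-5p (0.89), miR-7a-5p (0.88), miR-335-3p (0.88) and miR-1198-5p (0.87), and in log2 CPM their r was 0.85 to 0.89. miR-142, best known from blood cells, had 5251 to 7452 reads of its 3′ arm in ESCs, 1179 to 1337 in MEFs, 238 to 319 in iPSCs, 231 to 389 in NT-iPSCs and 75 to 117 in NT-ESCs. It therefore shared the order of ESCs, MEFs and NT-ESCs with miR-184-3p but lay further below MEFs in all reprogrammed cells.
miR-7a-5p, a miRNA of neural and endocrine cells, had a VST of 18.17 in ESCs, 16.63 in MEFs and 15.59 in NT-ESCs, with only 0.37 between the highest and the lowest reprogrammed type. miR-335-3p had 13.12 in ESCs, 11.33 in MEFs and 10.83 in NT-ESCs. The 3 with the lowest r were miR-674-3p (-0.92), miR-374-5p (-0.88) and miR-450b-3p (-0.87). In log2 CPM their r was -0.52 to -0.47, so the strength of these opposite patterns depended on the scaling.

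Over the 6 reprogrammed libraries alone, the 350 other miRNAs with a range of at least 1 were compared. The highest r were those of miR-142-5p (0.99), miR-465b-5p (0.98), miR-465c-5p (0.96), miR-375-3p (0.96) and miR-465a-5p (0.95). In log2 CPM they were 0.93 to 0.98. The libraries are 3 types of 2 close replicates, so each r rests on little more than 3 type means. Being the highest of 350, such values are no evidence of a link between the miRNAs. That NT-ESCs are lowest in all of these follows from the choice by r. The 5′ arm of miR-142 had 2453 and 3036 reads in iPSCs, 1206 to 1297 in NT-ESCs and 2921 to 2936 in NT-iPSCs. Its level in ESCs, at 143.3 to 191.1 CPM, overlapped that in NT-ESCs (171.4 and 193.4 CPM) and lay below iPSCs and NT-iPSCs, whereas its 3′ arm and miR-184-3p were highest in ESCs.
miR-375-3p, known from pancreatic islets, had 646 to 771 reads in iPSCs, 181 to 254 in NT-ESCs and 619 to 691 in NT-iPSCs, and 20 to 74 in ESCs. The miR-465 members, from a cluster on the X chromosome, had at most 3 reads in MEFs. miR-465c-5p had 641 to 895 reads in ESCs, 427 to 612 in iPSCs, 164 to 184 in NT-ESCs and 492 to 800 in NT-iPSCs. The lowest r were those of miR-466l-3p (-0.98), miR-130b-3p (-0.94) and miR-669m-3p (-0.92), which were -0.73 to -0.61 in log2 CPM. miR-130b-3p had 14047 and 16139 reads in NT-ESCs against 6071 to 6316 in NT-iPSCs.

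**Figure D4:**
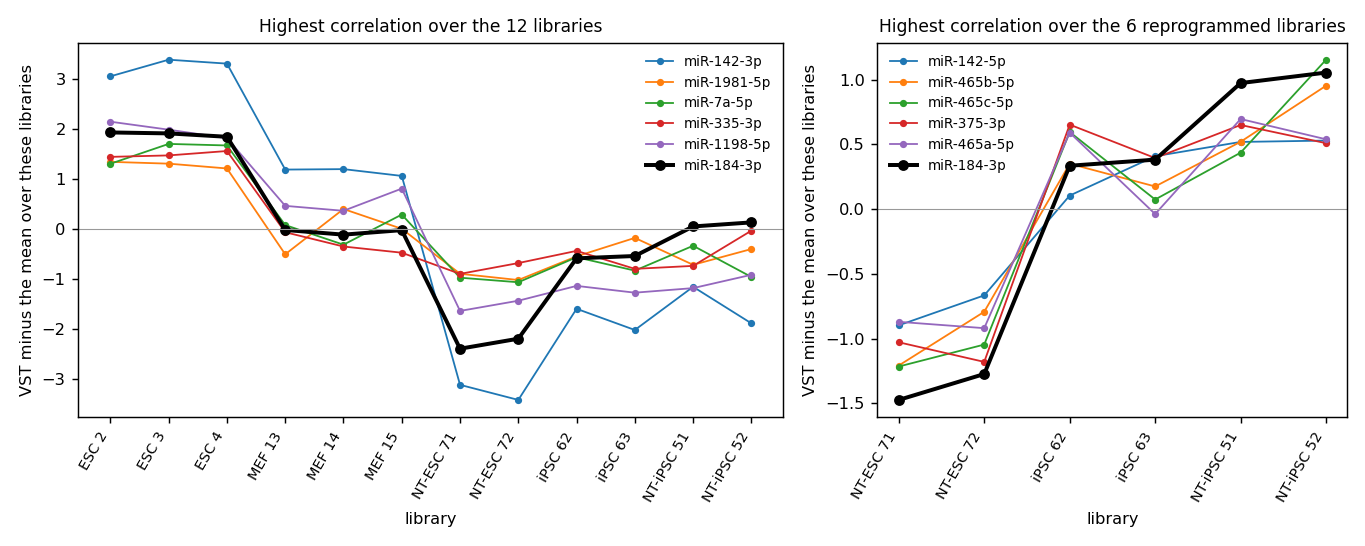
VST values of miR-184-3p (black) and of the 5 miRNAs with the highest r, each minus its mean over the libraries shown, over all 12 libraries (left) and over the 6 reprogrammed libraries (right). On the left the lines part in the NT-ESC libraries, where only miR-142-3p falls further than miR-184-3p. They also part in NT-iPSCs, where only miR-184-3p has a higher mean than in MEFs. On the right the NT-ESC libraries are the lowest of every line, which follows from choosing these miRNAs by r over the same libraries.

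The mature sequences of the closest miRNAs that RefSeq holds (GRCm38.p6) are shown with the seed in capitals, to set their seeds beside that of miR-184-3p.
miR-1981-5p: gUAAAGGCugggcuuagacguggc
miR-7a-5p: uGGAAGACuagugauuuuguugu
miR-335-3p: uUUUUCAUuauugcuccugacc
miR-1198-5p: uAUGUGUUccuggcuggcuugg
miR-465a-5p: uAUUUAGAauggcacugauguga
miR-465b-5p: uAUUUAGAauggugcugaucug
miR-465c-5p: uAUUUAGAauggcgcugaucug
Of the 16 miRNAs with the highest or lowest r, 10 had a sequence there and 0 of these shared the seed of miR-184-3p. The 3 miR-465 members share 1 seed. miR-465b-5p and miR-465c-5p differ at 1 of 22 positions, and miR-465a-5p differs from them at 3 and 2 positions and by 1 base in length. How reads that match several of them were counted is not given in the sources used here, so their separate values are uncertain.

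Other miRNAs of the settings in which miR-184 is known were taken as lists. Of 10 arms of miR-204, miR-211, miR-205, miR-203 and miR-31, which are abundant in eye or surface epithelium, 8 were tested. Against ESCs, 6 of the 8 were higher in reprogrammed cells, 1 was lower and 1 was not called (limma, adjusted p under 0.05), beside 44% of all 732 miRNAs called as higher and 38% as lower. Of those higher, miR-204-5p and miR-205-3p reached 10 reads in reprogrammed libraries only, so they passed the filter through the group in which they were high, and nothing is read from the count. It was the same under every scaling tried. miR-205-5p, an epithelial miRNA, had 76 to 97 reads in ESCs and 1055 to 2303 in reprogrammed cells, a difference of 3.56 (standard error 0.28, adjusted p = 2.4e-07, limma). The 1 that was lower was miR-211-3p, at -1.84 (adjusted p = 0.00589, limma).
In MEFs against ESCs, 4 of the 8 were higher and 4 lower, where 39.1% of all miRNAs were called as higher and 39.9% as lower. The median was -0.60 with the deposited values and 0.17 with upper quartile scaling, and in CPM 3 were higher and 3 lower. Among those higher was miR-203-3p, at 2.65 (adjusted p = 4.2e-08, limma), and among those lower miR-205-5p, at -2.69 (adjusted p = 1.3e-05, limma). For reprogrammed cells against MEFs, 5 were higher, 1 lower and 2 not called, or 6 higher and 1 lower in CPM, and 5 higher and 3 lower with upper quartile scaling. Of all miRNAs 48.5% were called as higher here and 40.4% as lower. miR-205-3p is again among those higher, having passed the filter through reprogrammed libraries alone, and nothing is read from this count either. The lens miRNA miR-204-5p had at most 17 reads in any library, and miR-204-3p had 0 reads in every ESC and iPSC library, which allows up to 0.617 and 0.567 CPM in the shallowest library of each.

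The other list held the arms of miR-137 and miR-195, neural stem cell miRNAs tied to methyl-CpG-binding proteins as miR-184 is, and 3 of its 4 arms were tested. Against ESCs, where 82% of all miRNAs were called and 38% were lower, 2 were lower in reprogrammed cells, miR-137-3p at -3.83 (adjusted p = 2.9e-06, limma) and miR-195-3p. The latter had 27 to 37 reads in ESCs and at most 3 in any other library, so it passed the filter through ESCs alone and its difference is given no weight. miR-195-5p differed by 0.0047 (adjusted p = 0.986, limma). In MEFs against ESCs miR-137-3p was higher by 3.63 (adjusted p = 2.1e-05, limma), and miR-195-5p was lower by -4.01 (adjusted p = 4.7e-08, limma), as miR-195-3p was on the reads just given. For reprogrammed cells against MEFs 1 was higher, 1 lower and 1 not called, beside 48.5% and 40.4% of all miRNAs called as higher and lower. The counts in each comparison were the same under every scaling tried. The median of the 3 arms, miR-195-3p included, went from -3.83 to -2.39 in CPM for reprogrammed cells against ESCs. For MEFs against ESCs it went from -3.88 to -2.56.

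Markers of other cells that the cultures could hold are given beside these values. The fibroblast sum was lowest in iPSCs, whereas miR-184-3p was lowest in NT-ESCs. In the nuclear transfer types miR-199a-3p made up most of that sum, at 28476 to 33868 CPM, and miR-143-3p, the most abundant fibroblast marker in MEFs, was at 2466 to 3465 CPM, against 46827 to 74418 in MEFs. The 6 neural miRNAs summed to 4302 to 4827 CPM in NT-ESCs, 3759 to 4080 in iPSCs, 2894 to 3974 in NT-iPSCs, 1704 to 1966 in ESCs and 1493 to 1774 in MEFs. Against ESCs 3 of them were higher in reprogrammed cells and 3 lower (limma), beside 44% and 38% of all miRNAs, with miR-128-3p at 3.42 and miR-9-5p at -3.31. In CPM, with upper quartile scaling and without the 10 most abundant miRNAs in the total, 3 were higher, 2 lower and 1 was not called. The 4 epithelial miRNAs summed to 2382 to 3568 CPM in ESCs, 771 to 804 in iPSCs, 422 to 571 in NT-ESCs, 291 to 326 in NT-iPSCs and 230 to 257 in MEFs, and most of the sum in ESCs was miR-200c-3p, at 2174 to 3282 CPM. The members differed: miR-205-5p was highest in iPSCs and miR-203-3p in MEFs. The part of any of these cells in the level of miR-184-3p was not tested.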

How the data were processed

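Small RNA of 12 libraries from 5 cell types was sequenced. The authors filtered and annotated the reads, normalized the miRNA reads with DESeq and deposited VST values on a log2 scale. The submitters' processing notes name the build mm8; the miRBase release is not given in the sources used here. Inverting the VST gave whole reads within 0.05 read for 100% of nonzero values (library totals 4863365 to 8608689). Size factors are those implied by the deposited values. limma (3.58.1, R 4.3.3) was fitted to the deposited values of all 12 libraries, with a mean per cell type, a variance trend and Benjamini-Hochberg adjustment at 0.05 over the 732 miRNAs that reached 10 reads in 2 or more libraries. On simulated data, 86% and 89.7% of log2 changes of 1 were recovered for MEFs and for reprogrammed cells against ESCs, on 698 and 690 miRNAs. The simulated reads had 1 fixed dispersion and left most miRNAs unchanged, unlike these data, so the recovery need not hold here. Alternatives were scalings by library total, upper quartile, TMM-type factors (trimming 30% of log ratios and 5% of abundances) or the total without the 10 most abundant miRNAs, all log2 with a pseudocount of 1, other filters and fits, voom, and leaving out each library. List counts under each scaling were added after the data were seen.

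miRNAs named are miR-184-3p, the members of lists, and those of highest and lowest r with miR-184-3p (5 and 3, over 12 libraries and over the 6 reprogrammed ones). The member, lists and tests were chosen with earlier results of these data known. miR-195-5p and miR-195-3p of the table were read as the current miR-195a arms. Chi-square per degree of freedom between replicate libraries was 46.4 to 349.6, so none was a copy of another. Of the table's names, 804 matched RefSeq. Other steps were run in Python 3.11.15 (scipy 1.17.1 for permutation tests, numpy 2.4.6, pandas 2.3.3).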

Additional observations from a re-analysis of the deposited data

How the results depend on the processing

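With the libraries scaled to their totals (CPM), the mean difference of miR-184-3p between reprogrammed cells and MEFs changed sign, to 0.14 (limma adjusted p = 0.278, over a range of 9.0e-08 to 0.278 for its alternatives). It kept its sign but moved from -0.87 to -0.53 with TMM-type scaling and to -1.29 with upper quartile scaling. Without the 10 most abundant miRNAs in the total it was -0.50. The cause of these shifts was not tested. In CPM, NT-ESCs differed from iPSCs by -2.08, NT-iPSCs from iPSCs by 0.11 and NT-iPSCs from NT-ESCs by 2.19. Without the 10 most abundant miRNAs in the total these were -1.84, 0.40 and 2.23, and with upper quartile scaling NT-iPSCs differed from iPSCs by 0.73. The differences of MEFs and of the reprogrammed mean from ESCs kept their direction and their call under each alternative, with adjusted p from 6.7e-11 to 4.8e-06 and from 6.4e-13 to 1.3e-08 (limma). Leaving out each library in turn gave -1.98 to -1.92 and -2.86 to -2.79 for these, -0.90 to -0.84 against MEFs, and -1.83 to -1.63, 0.62 to 0.70 and 2.29 to 2.49 among the types. Counts of called miRNAs stayed within 1.5 times in the 3 tested comparisons. Of those called for MEFs against ESCs, 49.5% were higher in MEFs, but 30.8% in CPM, 38.3% with TMM-type and 60.6% with upper quartile scaling. For reprogrammed cells against MEFs 54.5% were higher, and 65.5% in CPM. No paired analysis was possible because no 2 cell types have a replicate number in common. With 1 line per type and 2 libraries per reprogrammed type, differences between lines cannot be seen.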
